A study of Mus musculus with 18 samples.

Results

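The comparison described here set distal colon collected at 12pm against distal colon collected at 4pm, in the middle and in the late part of the light phase. It used 6 of the 18 arrays of a series that followed the tissue around the day. The 3 arrays titled with 12pm and the 3 titled with 4pm were taken as the groups, and all 12870 genes that could be tested were compared. Mice had lived for 2 weeks in 12 h of light (from 7 in the morning) and 12 h of darkness, so 12pm lay 5 h and 4pm 9 h after lights on, the latter 3 h before lights off. Both groups ate freely. The tissue was cut about 0.5 cm above the anus, and the strain, sex and age of the mice are not given in the sources used here. The letters a, b and c that mark the arrays of a time do not say whether each came from 1 mouse or a pool, so the p-values below measure the spread between these arrays. The other 12 arrays (8am, 8pm, 12am and 4am) entered the fits to estimate that spread, and the 12am and 4am arrays also served as the same pair of clock positions in the dark.

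The mammalian clock is a feedback loop of transcription. CLOCK and BMAL1 (the product of Arntl) bind E-boxes, short DNA elements with the core CACGTG, and switch on the Per and Cry genes, whose proteins then repress CLOCK and BMAL1. A second arm runs through Nr1d1 and Nr1d2, which encode REV-ERB repressors of Arntl, and the factors DBP, TEF and HLF carry the rhythm on to further genes. Mice eat mostly at night, and in peripheral tissues such as the gut the clock is also set by feeding. In nocturnal rodents the afternoon is the time when Dbp and then the Per genes climb and Arntl runs down.

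The promoters of 4 clock genes are shown first because their signals stood higher at 4pm without overlap, and because an E-box lies close to their starts. Each line gives the 250 bases before an annotated start, read 5′ to 3′ on the gene's strand from RefSeq (build GRCm38.p6), with CACGTG in capitals. Ciart (minus strand, chr3:95882229-95882478) holds 3 copies, the 1 farthest from the start 116 bases before it. Tef (plus strand, chr15:81802423-81802672) holds 1 copy, 127 bases before the start, and the window of its other annotated start (not shown) holds 1 at 138 bases. Tspan4 (plus strand, chr7:141476130-141476379) holds 1 copy, 51 bases before the start, and the window of its other annotated start holds none. Cipc (plus strand, chr12:86947093-86947342) holds 1 copy, 17 bases before the start, and the window of its other annotated start holds none.
Ciart: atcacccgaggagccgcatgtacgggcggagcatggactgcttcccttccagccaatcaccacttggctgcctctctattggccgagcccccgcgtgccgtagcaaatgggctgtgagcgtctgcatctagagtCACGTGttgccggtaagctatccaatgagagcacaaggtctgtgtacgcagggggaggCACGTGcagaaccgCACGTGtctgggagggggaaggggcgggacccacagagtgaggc
Tef: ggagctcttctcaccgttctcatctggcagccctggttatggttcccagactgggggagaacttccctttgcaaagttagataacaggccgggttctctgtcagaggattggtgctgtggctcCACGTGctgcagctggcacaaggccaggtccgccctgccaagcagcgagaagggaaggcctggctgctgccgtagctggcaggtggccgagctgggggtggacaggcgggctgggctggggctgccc
Tspan4: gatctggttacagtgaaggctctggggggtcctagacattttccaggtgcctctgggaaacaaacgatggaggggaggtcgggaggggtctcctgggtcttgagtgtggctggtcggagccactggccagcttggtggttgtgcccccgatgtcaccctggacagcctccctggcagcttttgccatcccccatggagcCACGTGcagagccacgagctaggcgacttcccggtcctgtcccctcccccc
Cipc: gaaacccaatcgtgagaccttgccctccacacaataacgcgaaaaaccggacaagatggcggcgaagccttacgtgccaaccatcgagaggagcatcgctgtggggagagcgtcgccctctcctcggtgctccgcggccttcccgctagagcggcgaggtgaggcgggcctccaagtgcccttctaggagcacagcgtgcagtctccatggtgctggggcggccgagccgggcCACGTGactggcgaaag
CACGTG reads the same on both strands. It was present in 6.02% of all 32851 windows of this length, and in at least 1 window of 9.63% of the 10356 tested genes that had one. Among the clock genes listed below, 8 of the 24 with a window (33.3%) held it: Ciart, Cipc, Coq10b, Cry1, Lonrf3, Per1, Tef and Tspan4. Of these, Coq10b, Cry1, Lonrf3 and Per1 had overlapping groups. Dbp, Cry2, Hlf, Usp2 and Cirbp, also higher at 4pm without overlap, had windows without it. Of the 555 genes with a window whose signal was higher at 4pm at an unadjusted p under 0.05, 10.8% held it, against 8.05% of the 174 that were lower. A match is a description of these letters only.

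Array quality differed within the 4pm group and is given before the results that rest on it. Affymetrix arrays carry probe sets for the 3′ and the 5′ end of Gapdh, and a high ratio of the 3′ to the 5′ signal is a usual sign of shortened RNA or cDNA. The ratio was 0.746 to 0.81 in the 3 arrays at 12pm, 0.867 in 4pm a, 34.3 in 4pm b and 2.33 in 4pm c. The 5′ signal of Gapdh was 244 in 4pm b. The ratio for Actb was 4.99 in 4pm b and 1.80 in 4pm c, against 1.15 to 1.17 at 12pm. Among the bacterial spike controls, the ratio for thr was 41.6 in 4pm b, and those for phe and lys were 6.37 and 10.1 in 4pm c. Outside this comparison, 4am a and 4am b had Gapdh ratios of 36.0 and 18.2. Over all tested genes the log2 values of 4pm b correlated with those of the arrays at 12pm at 0.879 to 0.890, while the arrays at 12pm correlated among themselves at 0.952 to 0.968. Many of the counts and values below are therefore also given without 4pm b. The counts of groups that did not overlap are given with all arrays only.

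The tissue carried the genes that mark colon at both times. Slc26a3, the chloride and bicarbonate exchanger of surface colonocytes, had signals of 15844, 14436 and 13551 at 12pm and 12472, 12324 and 16576 at 4pm. Muc2, the main gel-forming mucin of goblet cells, read 16546, 16670 and 13952 against 13804, 12392 and 16449. Both sets of arrays overlapped for these genes, and also for the further markers Car1, Krt20, Clca1 and Myh11. Car4 (14391, 15722 and 13902 against 12172, 11987 and 12591) and Chga (779, 856 and 862 against 683, 577 and 768) lay below at 4pm without overlap. Of 17 surface colonocyte genes 4 were higher in mean at 4pm, and of 14 goblet cell mucus genes 3 (54.8% of all genes were). No deposited signal in the table was 0.

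Across the array, no gene passed the threshold of an adjusted p of 0.05 (limma, Benjamini-Hochberg over all 12870 genes) in either direction (0% higher, 0% lower). The lowest adjusted p was 0.0574. At an unadjusted p under 0.05, 671 genes (5.21%) were higher and 221 (1.72%) lower at 4pm, 892 in all, where 643.5 would be reached without any difference. Without any overlap of the groups, 1398 genes (10.9%) stood higher and 743 (5.77%) lower at 4pm. The mean was higher at 4pm for 7050 genes (54.8%), and the median log2 difference over all genes was 0.04. When each array was centred on its own median, that median moved to 0.15 and 850 of the genes with a low unadjusted p were higher against 147 lower (85.3% higher, against 75.2% on the deposited scale), so the sign of differences below that shift depends on the scaling. Without 4pm b, again no gene passed, and the lowest adjusted p was 0.162. At an unadjusted p under 0.05, 473 genes were then higher and 180 lower, 653 in all, near the 643.5 reached without any difference. That fit still took its spread in part from 4am a and 4am b, and its median SE was 0.327, against 0.299 with all arrays. When 4pm b was left out together with 4am a and 4am b, 6 genes were called higher (0.0466%) and 1 lower (0.00777%). That fit set 4pm a and 4pm c against the 3 arrays at 12pm, with a median SE of 0.244. At an unadjusted p under 0.05 it gave 1024 genes higher and 586 lower, 1610 in all, above the 643.5.

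**Figure D1:**
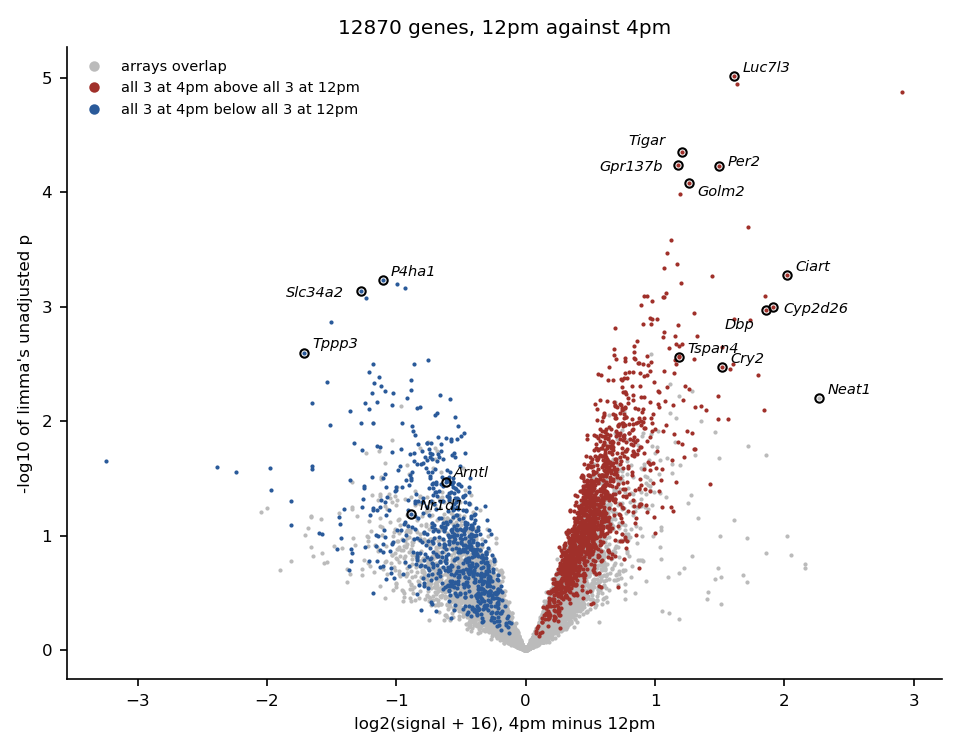
Each point is 1 of the 12870 genes, with the difference between 4pm and 12pm on the log2(signal + 16) scale across and the negative log10 of limma's unadjusted p upwards. Genes whose 3 arrays at 4pm all lay above those at 12pm (1398, red) or below them (743, blue) are coloured, and the labelled genes are ringed. The upper right holds Luc7l3, Tigar, Per2 and Golm2, and the left side holds fewer points at the same height.

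In the negative arm of the core loop, Per2, Ciart and Cry2 had higher signals at 4pm without overlap, none past the threshold. Per1, Per3 and Cry1 overlapped between the times. Per2, which encodes the period protein that closes the loop, had signals of 308, 216 and 235 at 12pm and of 549.8, 1178 and 609 at 4pm. The groups did not overlap, and 4pm b was the highest of the 6 arrays. The difference was 1.49 ± 0.28 on the log2 scale (SE, 3 against 3 arrays, limma adjusted p 0.125), or 2.82-fold, and it was 1.16 without 4pm b. Of its other probe sets, a weaker one differed by 0.72 ± 0.42 and the weakest by -1.05 ± 0.64. Averaged over the probe sets that passed the filter, the Per2 difference was 0.39.

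Ciart encodes CHRONO, another repressor of CLOCK and BMAL1, and it had the largest difference among the core clock genes. Its signals were 244, 92.4 and 119 at 12pm and 577, 608 and 672 at 4pm. The groups did not overlap, the 4pm arrays lay close together, and the 12pm arrays were more spread. The difference was 2.02 ± 0.48, or 4.06-fold (limma adjusted p 0.401), and 2.03 without 4pm b.

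Cry2, a cryptochrome that represses together with the PER proteins, read 164, 122 and 189 at 12pm and 635, 205 and 816 at 4pm. The lowest value at 4pm was that of 4pm b, which stood just above the highest value at 12pm. The difference was 1.52 ± 0.45 with all arrays (limma adjusted p 0.543) and 2.10 without 4pm b. Cry2 was among the 6 genes called higher without 4pm b, 4am a and 4am b (limma adjusted p 0.0333), and its adjusted p ranged from 2.578e-04 to 1.00 over all alternatives.

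Per1, the light-responsive period gene, had signals of 501, 309 and 664 at 12pm and 825, 401 and 1874 at 4pm. The groups overlapped, with a difference of 0.85 ± 0.82 (limma adjusted p 0.877) that was 1.38 without 4pm b. Per3 differed by 0.06 ± 0.22 and Cry1 by 0.27 ± 0.38, and both had overlapping groups. The 4 probe sets of Per3 did not go together: the dimmest of them differed by 1.43 ± 0.31 (unadjusted p 2.993e-04 in limma, adjusted p 0.285 over every probe set) and the others by -0.11 to 0.35. Csnk1d, 1 of the casein kinases that mark PER proteins for destruction, read 2740.5, 2329.6 and 2432 against 3043, 3675 and 5117, with no overlap and a difference of 0.62 ± 0.25 (limma adjusted p 0.657). Only 2 of its 5 probe sets differed in that direction, and the average over them was -0.29. The related kinase gene Csnk1e differed by 0.14 ± 0.34, and by 0.46 without 4pm b.

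The positive arm and the REV-ERB arm were mixed. Arntl, which encodes BMAL1, read 1019.9, 995 and 1578 at 12pm and 739, 902 and 651 at 4pm, without overlap. Its difference was -0.62 ± 0.27 (limma adjusted p 0.692) and -0.74 without 4pm b, and its second probe set differed by 0.02. Nr1d1, the gene for REV-ERB alpha, read 1919, 1351 and 1449.6 against 1269, 444 and 1028. The groups did not overlap, but the lowest array was 4pm b, and the difference of -0.88 ± 0.45 (limma adjusted p 0.736) became -0.44 without it. Npas2, a partner of BMAL1 that can replace CLOCK, differed by -0.40 ± 0.33, and by -0.20 without 4pm b. Clock differed by 0.04 ± 0.26, Nr1d2 by 0.47 ± 0.33, Rora by 0.12 ± 0.22, Rorb by 0.23 ± 0.41 and Bhlhe40, an E-box repressor, by 0.14 ± 0.23, all with overlapping groups. Of these, Clock (-0.26), Rora (-0.03) and Bhlhe40 (-0.02) had the opposite sign without 4pm b, and Nr1d2, the gene for REV-ERB beta, differed by 0.27.

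Of the 16 tested core clock genes, 13 were higher in mean at 4pm (54.8% of all genes were). Without 4pm b, 9 of the 16 were higher, beside 7376 of all 12870 genes. The groups did not overlap for 4 of them above (Per2, Ciart, Cry2 and Csnk1d) and 2 below (Arntl and Nr1d1), where 10.9% and 5.77% of all genes did so. The median difference of the list was 0.19 (0.26 without 4pm b), against 0.04 over all genes.

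**Figure D2:**
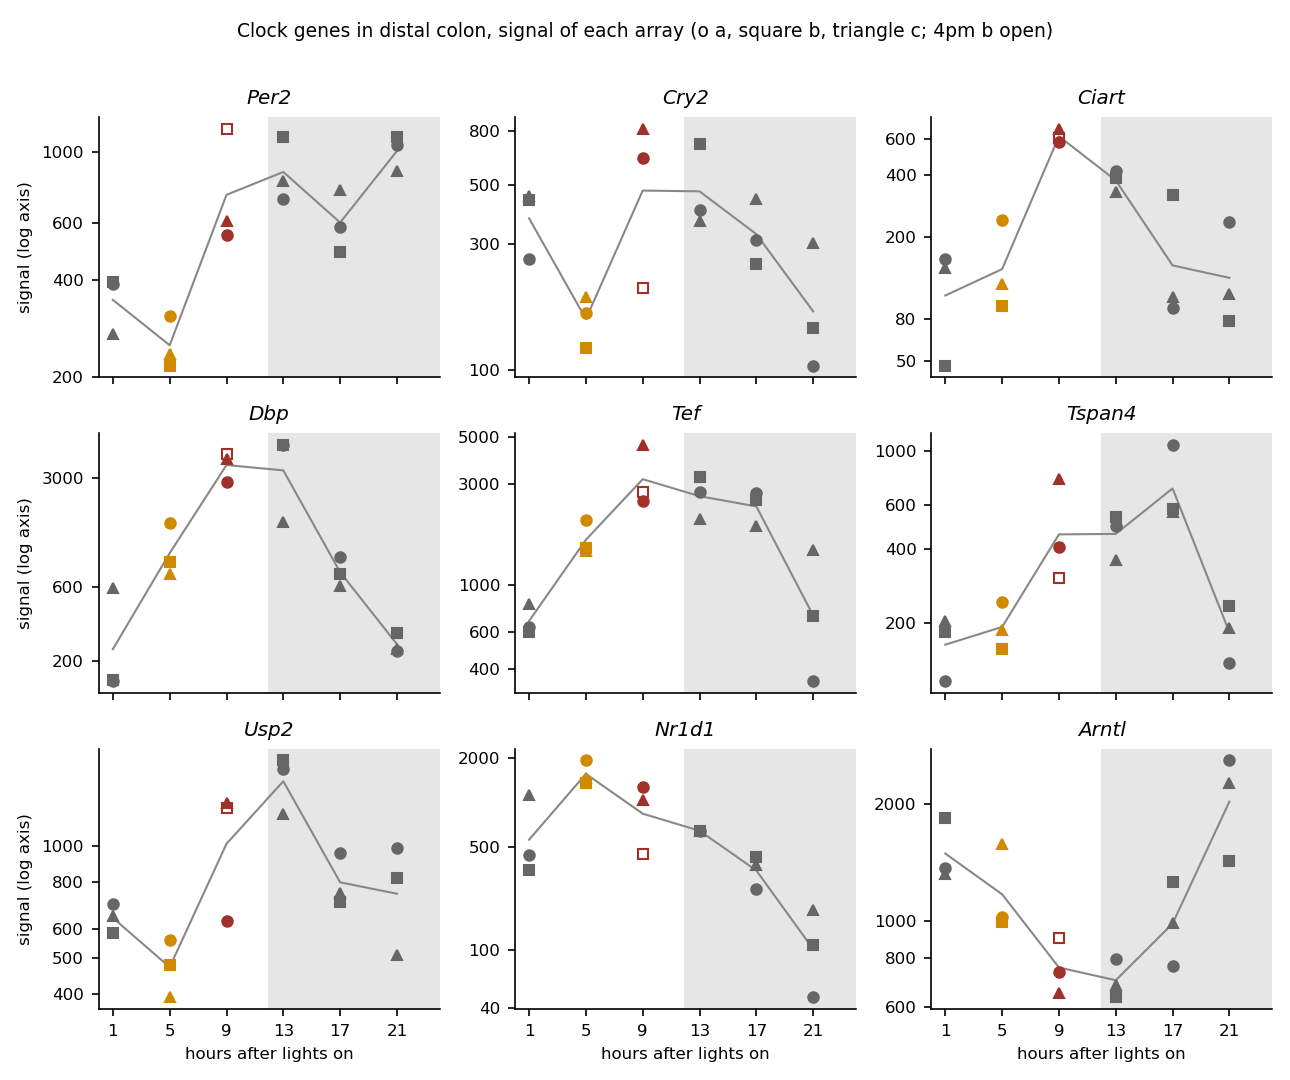
The deposited signal of 9 clock genes is plotted on a log axis against hours after lights on for all 18 arrays, with a line through the mean of each time and the dark phase shaded. The 12pm arrays (5 h) are in yellow and the 4pm arrays (9 h) in red, with 4pm b as an open square. Per2, Ciart, Dbp and Usp2 are higher at 9 than at 5 h, Arntl and Nr1d1 are lower, and 4pm b lies apart from the other 4pm arrays for Per2, Cry2 and Nr1d1.

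The genes of the clock output list were more uniformly higher at 4pm. Whether the loop drove their differences was not tested. Dbp, whose protein binds D-box elements in promoters of rhythmic genes, had signals of 1541, 863 and 725 at 12pm and 2824, 4255 and 3970.1 at 4pm. No array overlapped, and even the lowest 4pm array lay well above the highest 12pm array. The difference was 1.86 ± 0.47, or 3.62-fold (limma adjusted p 0.444), and 1.74 without 4pm b. Its second probe set gave 1.26 ± 0.50.

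Tef and Hlf, the relatives of Dbp in the same factor family, had the same direction. Tef read 2019, 1495 and 1452 against 2499, 2748 and 4614, a difference of 0.94 ± 0.38, and 1.05 without 4pm b. Hlf read 353, 232 and 344 against 374, 645 and 524, a difference of 0.69 ± 0.24, and 0.51 without 4pm b, and its second probe set gave 1.29 ± 0.35. The groups did not overlap for either gene, although 4pm a stood close to the highest 12pm array for Hlf. Their limma adjusted p were 0.657 and 0.612, and a weak second probe set of Tef differed by -0.04.

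Usp2, a deubiquitinase with a strong daily rhythm in many tissues, read 560.5, 481 and 393 at 12pm and 631, 1259 and 1304 at 4pm. The groups did not overlap, and 4pm a lay near the 12pm arrays while 4pm b and 4pm c were about level. Both of its probe sets gave a similar difference, 1.07 ± 0.29 and 1.03 ± 0.26 (limma adjusted p 0.493 for the first). Without 4pm b, the first differed by 0.92. Tspan4, a membrane tetraspanin, read 241, 156 and 187 against 407, 304 and 765, a difference of 1.18 ± 0.34 (limma adjusted p 0.531) and 1.47 without 4pm b. All 3 arrays at 4pm stood above those at 12pm, with 4pm c the highest.

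Cirbp, the cold-inducible RNA-binding protein, read 643, 431 and 713 against 1002, 1188 and 1283 (0.96 ± 0.43, limma adjusted p 0.706). Cipc, a CLOCK-interacting repressor, differed by 0.59 ± 0.25 and Dtx4, a ubiquitin ligase gene, by 0.36 ± 0.23, both without overlap. The other probe sets of Cipc differed by 0.45 and -0.57, and that of Dtx4 by -0.12. The other outputs had overlapping groups: Lonrf3 differed by 0.28 ± 0.30, Coq10b by 0.26 ± 0.34, Wee1, a kinase that holds back mitosis, by 0.17 ± 0.27, Tsc22d3, a glucocorticoid target, by 0.12 ± 0.44, and Nampt, an enzyme that salvages NAD, by -0.04 ± 0.27. Without 4pm b, Cirbp differed by 0.94, Cipc by 0.46, Dtx4 by 0.28, Coq10b by -0.17, Wee1 by 0.04 and Nampt by -0.29.

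Of the 13 tested clock outputs, 12 were higher in mean at 4pm (54.8% of all genes were). Without overlap, 8 lay above 12pm (10.9% of all genes did) and 0 below (5.77%). At an unadjusted p under 0.05 in limma, 7 were higher (5.21% of all genes were higher by that measure). The list's median difference was 0.59, and 0.46 without 4pm b. The mean log2 level of the list was 9.71, 9.47 and 9.64 in the arrays at 12pm and 10.02, 10.43 and 10.32 at 4pm, so the groups did not overlap. Its median was lower with arrays weighted by how well they followed the fit (0.27), with 4pm a alone for its group (0.28) or with probe sets averaged (0.39).

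Among the genes with the lowest p over the whole array, the leading one was Luc7l3, a serine- and arginine-rich protein of the U1 splicing machinery. Its signals were 879, 512 and 1093 at 12pm and 2277, 2098 and 3087 at 4pm. The groups stood far apart, and 4pm b was the lowest of its group. The difference was 1.61 ± 0.26, or 3.06-fold (limma adjusted p 0.0574), and 1.73 without 4pm b, where the adjusted p was 0.162. Its second probe set differed in the same direction, by 0.44 ± 0.50.

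Tigar, whose protein lowers glycolytic flux, read 294, 296 and 227 against 561, 749.7 and 643 (1.21 ± 0.22, limma adjusted p 0.125). Golm2, a Golgi membrane protein, read 104, 153 and 195 against 399, 448 and 290.0 (1.26 ± 0.25, limma adjusted p 0.153). Gpr137b, a lysosomal membrane protein, read 1582, 1253 and 1508 against 2515, 3826 and 3684 (1.18 ± 0.22, limma adjusted p 0.125). Without 4pm b, Tigar differed by 1.11, Golm2 by 1.13 and Gpr137b by 1.07. None of these 3 overlapped between the times. Only 1 of 4 probe sets of Gpr137b and 1 of 2 of Tigar differed in that direction, and with probe sets averaged the Gpr137b difference was 0.16. The largest difference upwards of any tested gene belonged to Gm6958, an uncharacterised transcript named after its values were seen, with 122, 25.5 and 38.8 against 639, 392 and 487 (2.91 ± 0.48, 7.53-fold, limma adjusted p 0.0574).

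The genes with the lowest p in the other direction had higher p-values. P4ha1, the prolyl hydroxylase that modifies collagen, read 472, 757 and 533 at 12pm and 265, 232 and 282 at 4pm (-1.11 ± 0.26, limma adjusted p 0.401). Slc34a2, a sodium and phosphate cotransporter, read 2100.2, 1709 and 2173 against 724, 1070.4 and 688 (-1.27 ± 0.31), and -1.47 without 4pm b. All arrays at 4pm lay below those at 12pm for both genes. Pnmal1 (-0.93 ± 0.23), Pramel12 (-0.99 ± 0.24) and Septin3 (-1.23 ± 0.30), a septin of neurons, completed the 5, with the same limma adjusted p of 0.401. The second probe set of Pnmal1 differed by 0.26 ± 0.34.

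When 4pm b, 4am a and 4am b were left out, 7 genes passed, and they are named here after their values were seen. Cry2, Luc7l3, Arglu1, Ewsr1, Cyp2d26 and 0610005C13Rik were higher at 4pm and Tppp3 was lower, all at a limma adjusted p of 0.0333 in that fit. With 4pm b alone left out none of them passed. Over the alternatives their adjusted p lay between 6.545e-05 (with array weights) and 1.00 (with 4pm a as the only array of its time).

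Arglu1, an arginine-rich coactivator that also acts in splicing, read 1188, 1159.8 and 1803 at 12pm and 2950.1, 2535 and 3302 at 4pm (1.10 ± 0.25 with all arrays, limma adjusted p 0.396). Ewsr1, an RNA-binding protein of the FET family, read 956, 1069.6 and 1330.1 against 2743, 2536 and 3028 (1.31 ± 0.33). The second probe set of Arglu1 differed by -0.05 and that of Ewsr1 by -0.55. The leading probe set of Ewsr1 is of a class that the maker marks as able to match other transcripts. Cyp2d26, a cytochrome P450 that oxidises xenobiotics, read 51.2, 45.7 and 57.4 against 328, 198 and 204, or 3.76-fold (1.91 ± 0.48). Tppp3, a microtubule-binding protein, read 4064, 5125 and 2991 against 1547, 762 and 1454 (-1.71 ± 0.48, and -1.39 without 4pm b). The arrays of the times did not overlap for any of these 4 genes.

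**Figure D3:**
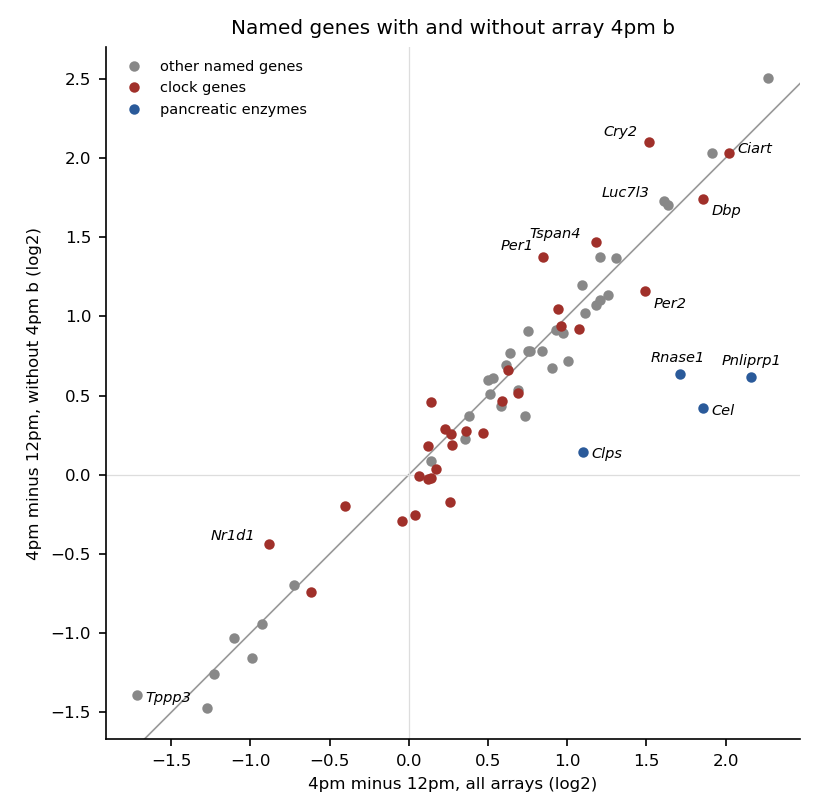
Each point is a named gene, with its log2 difference between 4pm and 12pm from all arrays across and the value without 4pm b upwards, and the grey line marks equal values. Among the clock genes (red), Cry2, Per1 and Nr1d1 lie above the line and Per2 and Coq10b below it. The 4 pancreatic enzyme genes (blue) lie far below it, between 0.14 and 0.63 without 4pm b.

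Splicing factors were the list with the most members that lay above 12pm without overlap, by count and not by share. Clock outputs had 8 of 13 and interstitial pacemaker cells 3 of 5 (10.9% of all genes). Pre-mRNA splicing is carried out by the spliceosome, and SR proteins and hnRNPs choose which exons it joins. Of 29 tested members, 21 were higher in mean at 4pm (54.8% of all genes were). Without overlap, 9 lay above 12pm (10.9% of all genes did) and 2 below (5.77%). At an unadjusted p under 0.05, 9 were higher (5.21% of all genes) and 1 was lower (1.72%). The median difference was 0.32, and 0.25 without 4pm b.

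Srsf6, an SR protein, read 2015, 2211 and 2465 at 12pm and 3318, 2902 and 3484 at 4pm (0.53 ± 0.17, limma adjusted p 0.595), and all 4 of its probe sets differed in this direction. Hnrnph1, an hnRNP that binds G-rich RNA, read 1836, 1607 and 2846 against 3881, 4066 and 2254 (0.69 ± 0.25, limma adjusted p 0.630). Srsf11, a further SR protein, read 1226, 935 and 2263 against 2754, 3556 and 1769 (0.90 ± 0.32, limma adjusted p 0.630). Only 2 of its 4 probe sets differed in this direction, the others by -0.59 ± 0.26 and -0.08 ± 0.61. Without 4pm b, Srsf6 differed by 0.61, Hnrnph1 by 0.54 and Srsf11 by 0.68. The groups were apart for Srsf6 and overlapped for Hnrnph1 and Srsf11, where 12pm c lay above 4pm c.

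The same array stood out for the kinase genes Clk1 and Clk4, whose products phosphorylate SR proteins. Clk1 read 878, 685 and 2911 at 12pm and 2921, 3376 and 1935 at 4pm (1.14 ± 0.47). Clk4 read 310.3, 151 and 555 against 721, 896 and 534 (1.19 ± 0.48). In both, 12pm c lay above 4pm c. Hnrnpl, the member that was lower at an unadjusted p under 0.05, read 410.0, 313 and 278 against 232, 139 and 74.5 (-1.19 ± 0.50). Hnrnpd, an hnRNP that binds AU-rich RNA, read 1658, 1731 and 2090 against 2498, 3018 and 2789 (0.60 ± 0.24), and Ddx17, an RNA helicase, 5212, 4883 and 5574 against 6818, 6228 and 8448 (0.44 ± 0.19). These 5 genes were chosen after their values were seen.

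Nuclear long noncoding RNAs also had higher means at 4pm. Of 9 tested, 8 were higher (54.8% of all genes were), 3 of them without overlap (10.9% of all genes), and the median difference was 0.52 (0.70 without 4pm b). Neat1, the scaffold of nuclear paraspeckles, read 751, 295 and 3854 at 12pm and 5374, 3389.9 and 5628 at 4pm. The difference of 2.27 ± 0.73 (limma adjusted p 0.595) was the largest of the list, the groups overlapped through 12pm c, and its second probe set differed by -0.44 ± 0.24. Meg3, an imprinted transcript, read 408, 377 and 450.0 against 676, 562 and 913 (0.75 ± 0.24), and 5 of its 6 probe sets differed in this direction. Snhg1, a host of small nucleolar RNAs, read 536, 487 and 1069 against 1651, 1223 and 1792 (1.21 ± 0.45), and its 4 probe sets had the same sign. Malat1, the abundant speckle RNA, was the exception, with 18776, 15189 and 13843 against 13871, 4899 and 17511 (-0.58 ± 0.63), and its lowest value was in 4pm b.

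**Figure D4:**
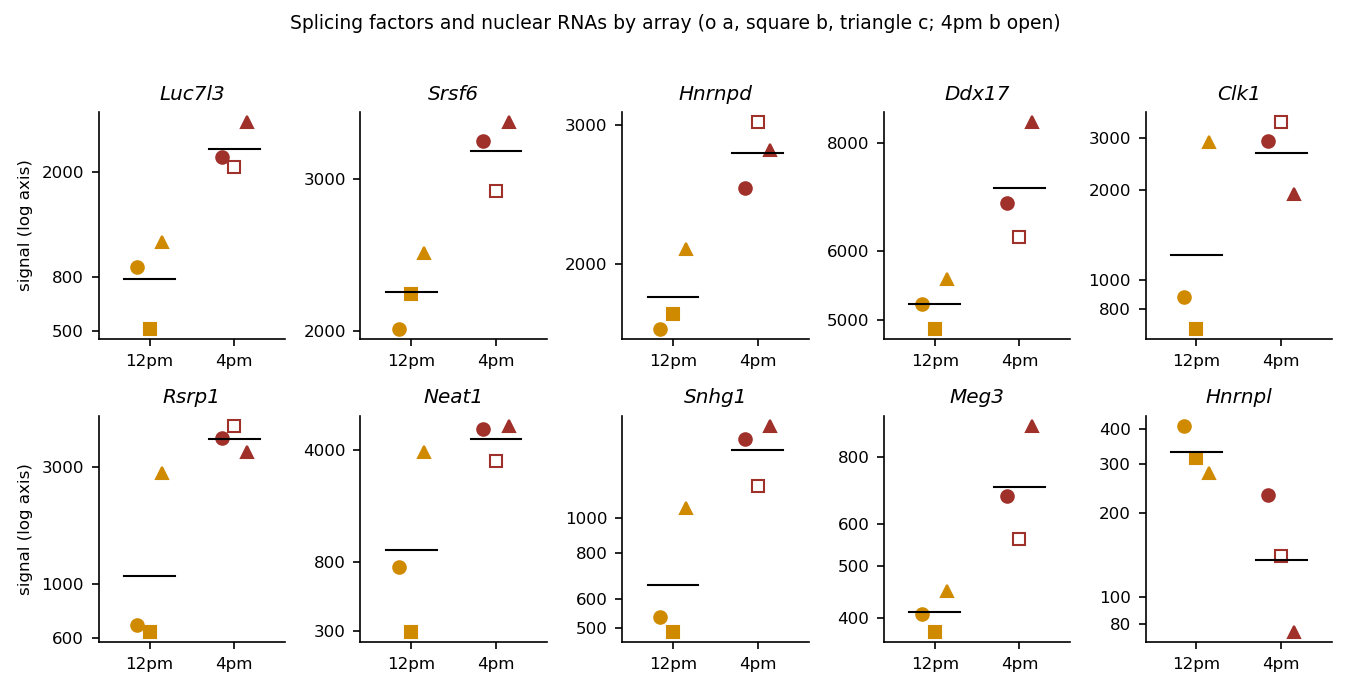
The signal of 10 splicing and nuclear RNA genes is plotted on a log axis for each array at 12pm (yellow) and 4pm (red), with a bar at the mean taken on the log2(signal + 16) scale and 4pm b open. Luc7l3, Srsf6, Hnrnpd, Ddx17, Rsrp1, Snhg1 and Meg3 show separate groups with 4pm above, and Hnrnpl shows separate groups with 4pm below. For Clk1, Rsrp1 and Neat1 the array 12pm c (triangle) lies near or within the 4pm group.

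Array 12pm c was the highest of the 3 arrays at 12pm for 18 of the 29 splicing factors (62.1%) and 6 of the 9 nuclear RNAs (66.7%), against 44.2% of all genes. It lay nearer to the 4pm mean than to the mean of the other arrays at 12pm for 13 of the 29 and 6 of the 9, against 6213 of all 12870 genes. Without it, the median of the splicing list was 0.39, and 9 genes passed, all higher at 4pm: Luc7l3, Rsrp1, Fendrr, Khdc4, Mtx3, Ppp1r9a, Tbce, Zcchc7 and 0610005C13Rik, with limma adjusted p between 0.0148 and 0.0418. They are named after their values were seen. Rsrp1, an arginine- and serine-rich protein gene, read 681, 635 and 2839 at 12pm and 3935, 4430.4 and 3464 at 4pm. Its difference was 1.85 ± 0.46 with all arrays and 2.55 without 12pm c. Fendrr, a long noncoding RNA of mesenchyme, read 129, 120.1 and 471 against 766, 492 and 882 (1.74 ± 0.45). The Gapdh ratio of 12pm c, 0.746, was the lowest of the 18 arrays.

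Several lists that mark cell types of the gut wall or immune responses also had medians of 0.3 or more. Beside their counts, 54.8% of all genes were higher in mean, 10.9% lay above without overlap and 5.77% below. In whole tissue a change in the number of cells of a type and a change of RNA per cell cannot be told apart. Of 5 tested genes of interstitial pacemaker cells, 4 were higher, 3 without overlap (10.9% of all genes), and the median difference was 0.51 with and without 4pm b. Pdgfra, a growth factor receptor of fibroblast-like cells, read 1103, 1303 and 908 at 12pm and 2065, 3269.8 and 1587 at 4pm (1.00 ± 0.36, limma adjusted p 0.630). It differed by 0.72 without 4pm b, and its other probe sets differed by 0.39 ± 0.30 and -0.58 ± 0.57. Elovl6, a fatty acid elongase placed on this list, read 755, 695 and 1146 against 1771, 1883 and 1412 (0.98 ± 0.25, limma adjusted p 0.448). The other probe sets of Elovl6 differed by 0.43 ± 0.30 and -0.22 ± 0.22. Gjc1, a gap junction protein, differed by 0.51 ± 0.23. The defining markers of these cells differed less and overlapped: Kit, their receptor tyrosine kinase, by -0.15 ± 0.26 and Ano1, their chloride channel, by 0.14 ± 0.24. Averaging the probe sets of each gene lowered the list's median to 0.27, and testing without a filter lowered it to 0.09.

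Of 17 macrophage and complement genes, 12 were higher, 4 without overlap above (10.9% of all genes) and 2 below (5.77%), with a median difference of 0.39 (0.38 without 4pm b). Mpeg1, the macrophage perforin, read 682, 487 and 606 against 1300.3, 1459 and 1117 (1.11 ± 0.31, limma adjusted p 0.531). Csf1r, the receptor for macrophage growth factor, differed by 0.75 ± 0.34 and Cx3cr1, the fractalkine receptor, by 0.50 ± 0.22, both without overlap. The other probe sets of Csf1r differed by 0.50 ± 0.29 and -0.18 ± 0.28. Cd14, the coreceptor for bacterial lipopolysaccharide, was lower at 4pm, with 1777, 1699 and 1618 against 1066, 979.7 and 1019.6 (-0.72 ± 0.32, limma adjusted p 0.695). C1qa, a complement gene named after its values were seen, read 2059.9, 1825 and 1382 at 12pm and 2111, 17.9 and 1689 at 4pm, so its mean difference of -1.81 ± 1.25 came with 1 very low value, in 4pm b.

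Of 15 interferon-response genes, 11 were higher (54.8% of all genes were) and 3 of them lay apart (10.9%), with a median difference of 0.34 (0.19 without 4pm b). Rsad2, the antiviral protein viperin, read 469, 334 and 647 against 823, 926 and 803 (0.84 ± 0.28, limma adjusted p 0.595). Oas2 and Iigp1, further interferon-induced genes, lay apart with differences of 0.93 ± 0.45 and 0.61 ± 0.31, and Ifit1 overlapped with 0.74 ± 0.39, and 0.37 without 4pm b. Of 14 genes of enteric neurons and glia, 10 were higher (54.8% of all genes were) and 3 lay apart (10.9%), with a median of 0.31 (0.24 without 4pm b, and 0.15 without 12pm b). Chat, the enzyme that makes acetylcholine, read 143, 130.4 and 193 against 291, 264 and 261 (0.76 ± 0.28, limma adjusted p 0.631). Snap25 (0.58 ± 0.28) overlapped, and Vip (0.38 ± 0.24) and Syt1 (0.35 ± 0.24) did not. The other probe sets of Syt1 differed by -0.02 ± 0.44 and -0.11 ± 0.38.

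Pancreatic enzyme genes had the largest median of any list, 1.18, with no separation of the times. Of 13 tested, 11 were higher in mean at 4pm (54.8% of all genes were). None lay apart, where 10.9% of all genes lay above and 5.77% below. The mean log2 level of the list was 10.10, 9.42 and 11.87 at 12pm and 12.05, 13.57 and 9.12 at 4pm, so 12pm c, 4pm a and 4pm b were high and the other arrays low. The summed signal ran from 46515 to 69565 at 12pm and from 50974 to 158978 at 4pm. Cel, the bile-salt-activated lipase, read 275, 224 and 1329.7 against 1194, 12012 and 289.7 (1.85 ± 1.20, limma adjusted p 0.804). Rnase1 read 556, 428 and 1576 against 2686, 10760 and 471, Pnliprp1 140.5, 85 and 1429 against 1919.7, 10734 and 81.8, and Clps, the cofactor of pancreatic lipase, 2141, 822 and 2474 against 2949, 13261 and 1108. Without 4pm b the list's median was 0.11. These are textbook products of the exocrine pancreas, and their part in the other results was not tested.

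**Figure D5:**
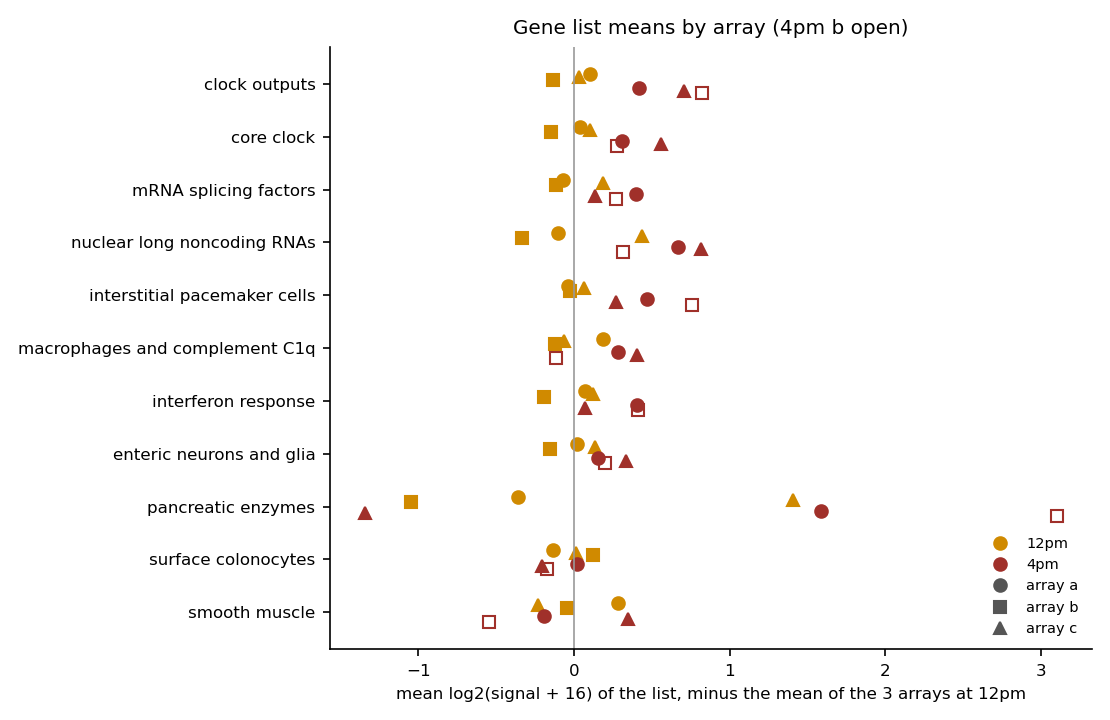
The mean log2(signal + 16) over the tested members of 11 gene lists is plotted for each array, relative to the mean of the 3 arrays at 12pm (vertical line at 0), with 12pm in yellow, 4pm in red and 4pm b open. For clock outputs, core clock, interstitial pacemaker cells and, narrowly, enteric neurons and glia every 4pm array lies to the right of every 12pm array. For pancreatic enzymes the points of both times are spread over more than 4 log2 units.

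Some of the lists with medians under 0.3 in size are given by counts. Beside these counts, 54.8% of all genes were higher in mean, 10.9% lay above without overlap and 5.77% below. Fibroblast and collagen genes had 17 of 18 higher in mean, 5 without overlap (10.9% of all genes), and a median of 0.29. Heat shock genes lay on the other side, with 5 of 20 higher and a median of -0.21. Dnaja4, a co-chaperone, read 358, 367 and 381 at 12pm and 292, 187 and 186 at 4pm (-0.72 ± 0.28), and Stip1, which links HSP70 to HSP90, read 948, 1358 and 798 against 649, 296 and 523 (-1.09 ± 0.46). Both are named after their values were seen. Tight junction genes had a median of -0.29, with 4 of 17 higher and 3 lying below without overlap (5.77% of all genes). Surface colonocyte genes had 4 of 17 higher and a median of -0.13. Of these 17, 4 lay below without overlap (5.77% of all genes) and 0 above (10.9%). Smooth muscle genes had 7 of 17 higher and a median of -0.15 that was 0.09 without 4pm b. MHC class II genes had 8 of 8 higher and a median of 0.27 (0.41 without 4pm b). B and plasma cell genes had 13 of 16 higher (median 0.19) and glucocorticoid targets 13 of 17 (0.23). Goblet cell mucus genes had 3 of 14 higher and a median of -0.17. The remaining lists are not described. With each array centred on its median, the medians were -0.10 for heat shock, -0.18 for tight junctions and -0.02 for surface colonocytes.

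Marker lists of neighbouring tissues were compared for the dissection. The summed signal of smooth muscle genes ran from 90972 to 126309 at 12pm and from 77233 to 126240 at 4pm, so it overlapped between the times. Squamous epithelium, which begins at the anus, summed to 6274 to 9075 at 12pm and to 5856 to 6420 at 4pm. Of its 8 tested genes, 0 were higher in mean at 4pm (54.8% of all genes were). Skeletal muscle genes summed to 1430 to 1811 and to 1064 to 2067. The part of these tissues in the differences above was not tested.

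The same 4 h step in the dark, from 12am to 4am, shares no array with this comparison. The difference between the steps was tested in the same limma fit, and 2 genes passed (0.0155%). Tspan4 read 1059, 579 and 563 at 12am and 137, 233 and 190 at 4am, so every array at 4am lay below every array at 12am, opposite to the light step. Its difference of differences was 3.04 ± 0.48 (limma adjusted p 0.0450). The other was 0610005C13Rik, a clone-named transcript. In the light it read 399, 411 and 732 and then 1390.1, 1423 and 1949.6. In the dark it read 832, 934 and 606 and then 445, 322 and 455, a difference of differences of 2.56 ± 0.38 (limma adjusted p 0.0417). Without 4pm b, 4am a and 4am b, where 4am c was the only array at 4am, the values were 3.27 for Tspan4 and 2.46 for 0610005C13Rik. Many of the alternatives lost both calls, as given below. Dbp and Tef followed among the clock genes, with 3.33 ± 0.67 (limma adjusted p 0.118) and 2.64 ± 0.53 (limma adjusted p 0.120).

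Other genes had the same direction in light and dark. Luc7l3 differed by 1.10 ± 0.26 between 12am and 4am and by 1.61 between 12pm and 4pm, with a difference of differences of 0.51 ± 0.37 (limma adjusted p 0.423). Arglu1 (1.00 in the dark), Ewsr1 (1.45) and Snhg1 (2.30) were also higher in mean at 4am, and Tppp3 was lower (-2.04). The splicing list had a median of 0.61 in the dark. These dark values rest on 4am a and 4am b, whose Gapdh ratios were high. With all arrays the dark step called 1952 genes higher and 2336 lower. Without 4pm b, 4am a and 4am b the step rests on 4am c as the only array at 4am. Its median log2 difference over all genes was then -0.009, against -0.17 with all arrays.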

How the data were processed

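Total RNA of distal colon was hybridised to Affymetrix mouse arrays, 3 per collection time. Per the labels and the submitters' processing notes, the deposited values are GCOS signal values, an intensity per probe set on a linear scale; no version is named. The mean of each array after trimming 2% at each end was 500, as scaling of each array to a common target gives. Detection calls and background levels were not used here, and the number of arrays limits the precision.

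Of 45101 probe sets, 64 controls were used only for array quality, and 34945 of the others carried 1 gene symbol in GEO's platform annotation (932 several, 9160 not listed). Values were taken as log2(signal + 16). Probe sets with a mean at or above the 40th percentile (7.10) were kept, and the one with the highest mean stood for its gene (12870 genes). The means of 6 times over 18 arrays were fitted with limma 3.58.1 in R 4.3.3 (lmFit, eBayes with a trend, 12 residual degrees of freedom), two-sided, with Benjamini-Hochberg adjustment over all genes and a threshold of 0.05. A difference is on the log2(signal + 16) scale, which understates changes of dim genes. A fold is 2 to the power of that difference. The fit was tested on simulated data.

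Genes were named by a rule: all tested members of the core clock and clock output lists; up to 10 per direction past the threshold or, where none passed, up to 5 with the lowest p; genes past the threshold in the difference between the light and the dark step; and 2 to 4 members with the lowest p of each list with 3 or more calls or a median of 0.3 or more in size. Clone names were counted and not named unless stated. The genes compared, the 44 lists and the tests were chosen with earlier results of these data known. Alternatives changed the constant, normalization, filter, probe set rule, moderation, weights, arrays, a covariate and a replicate block. No gene coordinates are given beside the promoter windows, since the build behind the probe annotation is not given in the sources used here.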

Additional observations from a re-analysis of the deposited data

Results flagged for a closer look

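In 2 genes the step from 12pm to 4pm differed from the step from 12am to 4am by a test of that difference (limma, adjusted over all genes). Tspan4 was higher at 4pm than at 12pm in every array and lower at 4am than at 12am in every array, with a difference of differences of 3.04 on the log2 scale (adjusted p 0.0450). The transcript 0610005C13Rik had the same pattern, with 2.56 (adjusted p 0.0417). Without 4pm b, 4am a and 4am b, where 4am c was the only array at 4am, the values were 3.27 for Tspan4 and 2.46 for 0610005C13Rik. Of 32 alternatives, 21 lost the call of Tspan4 and 18 that of 0610005C13Rik, with no change of direction. When each of the 18 arrays was left out in turn, 0 genes differed between the steps in 11 cases.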

How the results depend on the processing

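Genes called higher at 4pm (0 with all arrays and settings as reported) numbered 3 with a constant of 64, 3 with median centring, 995 with array weights, 5 with the Gapdh ratio as covariate and 6 without 4pm b, 4am a and 4am b, and 0 to 9 when 1 array was left out. The 9 were reached without 12pm c, 6 without 4am c, 4 without 4am a, and 1 each without 12pm a and 12am a. Genes called lower (0) numbered 440 with array weights, 1 without 4pm b, 4am a and 4am b, and stayed at 0 with any 1 array left out. The light and dark steps differed for 2 genes. That count was 5 with a constant of 1, 6 with probe sets averaged, 7 without the trend, 26 with the covariate, 3298 with array weights, 1 over every probe set and 0 to 3228 with 1 array left out (3228 without 4am c, 4 without 8am b, 0 in 11 of 18 cases). It was 0 with quantile normalization, median centring, no filter, without 4pm b, 4am a and 4am b, and without 4pm b and 4pm c. The cause was not tested. With the letter as a replicate block the counts were 0 higher, 0 lower and 0 between the steps. Letters gave no sign of pairing (same-letter correlations of -0.006, 0.14 and 0.03).

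Of the named genes, 13 had the opposite sign in at least 1 alternative, and none of them was called with all arrays. With the covariate, Ano1 was -0.0856, Bhlhe40 -0.1581, Clock -0.1916 and Cry1 -0.0826. With array weights, Bhlhe40 was -0.0072, Per3 -0.0436 and Rora -0.1216. With probe sets averaged, Clock was -0.0677, Csnk1d -0.2934, Nampt 0.1894, Rora -0.0368, Tsc22d3 -0.081 and Wee1 -0.4319. Quantile normalization gave -0.0081 for Clock and median centring 0.0689 for Nampt. Without 4pm b and 4pm c, Cry1 was -0.2371, Per3 -0.0591, Rora -0.1691 and Tsc22d3 -0.1127. Without 4pm b, 4am a and 4am b, Bhlhe40 was -0.0208, Clock -0.2555, Coq10b -0.1713, Per3 -0.0085 and Rora -0.0297. With 1 array left out, the ranges were -0.0208 to 0.2655 for Bhlhe40, -0.2555 to 0.3366 for Clock, -0.1713 to 0.6749 for Coq10b, -0.1602 to 0.4609 for Csnk1e, -0.0321 to 0.5957 for Lonrf3, -0.2948 to 0.1848 for Nampt, -0.0144 to 0.1441 for Per3, -0.0297 to 0.2672 for Rora and -0.056 to 0.259 for Tsc22d3.

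Each time has 3 arrays, and only 1 of those at 4pm had a Gapdh ratio near those at 12pm. Dim probe sets have signals near background and their differences are understated. The arrays of the other times were each left out after the data were seen.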
